A study of Mus musculus with 112 samples.

Results

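Snhg3 and Snhg12 are long noncoding RNA (lncRNA) genes of the mouse that carry small nucleolar RNAs (snoRNAs) within their transcription units. Their rows were picked by symbol, with earlier results of these data known, and are 2 of 1279 lncRNAs in the table of antisense treatments. The same 2 rows stand among 1279 lncRNAs of total RNA from a degron line, 1246 of its polyadenylated (polyA) RNA and 492 of its newly labelled RNA. The series asks how the U1 small nuclear ribonucleoprotein (snRNP) bears on the retention of noncoding RNAs on chromatin in 46C mouse embryonic stem cells (strain 129/Ola). In 1 set, cells carried antisense morpholino oligonucleotides (AMOs) for 2 h: 75 µM scrambled control, 75 µM against U1, 75 µM against U2, or 50 µM of U1 and U2 AMOs together. In the other set, a line built from 46C cells with SNRNP70, a protein of U1 snRNP, fused to an auxin-inducible degron (AID) was taken before and after 4 h in 500 µM indole-3-acetic acid (IAA). For labelled RNA (SLAM-seq), this line had 4-thiouridine for 3 h, either with no IAA or after 2 h of IAA that then went on through the label. The labels do not say how many clones the degron line stands for. Cells were taken whole or parted into chromatin, cytoplasm and nucleoplasm, with 3 libraries a group apart from 2 for control AMO whole cells. The labels name no separate cultures behind the libraries of a group, so the p-values below hold only against a spread between libraries that may be technical.

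A snoRNA host gene is spliced, and its snoRNAs are usually cut from the excised introns, while the joined exons leave as a separate RNA. The snoRNAs guide the modification or cleavage of ribosomal RNA. The spliced RNA of many hosts reaches the cytoplasm, is read by ribosomes and is known to be short-lived through nonsense-mediated decay. U1 pairs with the 5′ splice site and U2 with the branch point, and U1 also holds back early cleavage and polyadenylation inside genes.

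Both genes lie on chromosome 4 of GRCm38, the assembly also named mm10, by the RefSeq annotation GRCm38.p6. Snhg12 (ENSMUSG00000086290.8) spans 132308678 to 132311024 on the plus strand, and Snhg3 (ENSMUSG00000085241.7) spans 132351933 to 132353686 on the minus strand. The 40908 bases between them hold Rcc1, the exchange factor of the Ran GTPase, and Trnau1ap, a partner of the selenocysteine tRNA. Within Snhg12 lie 4 snoRNAs: Snora16a (132309465 to 132309600), Snora44 (132309953 to 132310069) and Snora61 (132310307 to 132310368), which are of the class that guides pseudouridine formation, and Snord99 (132310703 to 132310758), of the class that guides ribose methylation. Within Snhg3 lie 2, Snora73b (132352322 to 132352526) and Snora73a (132352775 to 132352979), copies of the U17 snoRNA that acts in the processing of 18S ribosomal RNA. Apart from these snoRNAs no annotated gene overlapped either host, and the snoRNAs have no rows of their own in the values used here. No row of the AMO, AID total or labelled table lay within 500 kb of either gene, and 2 rows of the polyA table did, Gm28874 at 41570 bases and Gm12992 at 388649 bases.

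The promoters are shown because the pair shares a neighbourhood but not a promoter, and each RNA is read from its own start. Each sequence runs 5′ to 3′ on the gene's strand over 300 bases, 250 before the annotated start and 50 from it on, from RefSeq on GRCm38.p6. Capitals mark matches to 4 motifs that were chosen after these sequences had been seen.
Snhg12 promoter, plus strand, chr4:132308428-132308727: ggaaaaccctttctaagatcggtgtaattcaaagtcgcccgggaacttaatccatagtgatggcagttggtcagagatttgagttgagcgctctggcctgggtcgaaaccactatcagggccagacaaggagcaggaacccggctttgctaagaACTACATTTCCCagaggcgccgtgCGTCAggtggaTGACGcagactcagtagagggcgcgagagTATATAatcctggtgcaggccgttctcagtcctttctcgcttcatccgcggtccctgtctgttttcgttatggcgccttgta
Snhg3 promoter, minus strand, chr4:132353637-132353936: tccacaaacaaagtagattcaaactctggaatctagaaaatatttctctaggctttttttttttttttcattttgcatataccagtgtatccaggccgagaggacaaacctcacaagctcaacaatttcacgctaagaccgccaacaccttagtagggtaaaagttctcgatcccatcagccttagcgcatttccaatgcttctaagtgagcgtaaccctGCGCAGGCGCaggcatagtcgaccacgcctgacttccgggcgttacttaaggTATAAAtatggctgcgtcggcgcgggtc
Motifs were searched on both strands, with bases counted from 1 at the annotated start and from -1 upstream of it. The ZNF143-type motif, shown here as ACTACATTTCCC and searched with any base at the seventh and the eighth position, matched Snhg12 at -96 to -85 and is in 1.81% of 32851 RefSeq promoters of this length. The half-site of the cyclic AMP response element, TGACG, matched Snhg12 at -72 to -68 on the reverse strand and at -61 to -57, and is in 20.8% of promoters. The NRF1-type motif, shown here as GCGCAGGCGC and searched with any base at the sixth position, matched Snhg3 at -30 to -21 and is in 4.6% of promoters. The TATA-type motif TATANA, in 24.7% of promoters, matched Snhg12 at -32 to -27, where the same bases fit it on both strands, and Snhg3 at 23 to 28, downstream of the annotated start. No match overlapped another motif, and a match describes letters, not binding.

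Levels below are fragments per kilobase of transcript scaled to the library's total (FPKM). In fractions these FPKM were deposited as spike-in normalized, and in whole cells they were not. A change is a difference of log2(FPKM + pseudocount), given with its standard error (SE). Adjusted p is from limma over all lncRNAs tested in the comparison, with 0.05 as threshold. Shares of lncRNAs called, and of lncRNAs whose groups did not overlap, are given beside the members as background. Libraries of a group correlated over lncRNAs at 0.891 or more in the AMO set, 0.892 in AID total, 0.961 in polyA and 0.834 in labelled RNA. In control whole cells 9 of 9 measured embryonic stem cell lncRNAs reached the low-value minimum in every library, with a summed level of 164 to 181 FPKM in the AMO set and 238 to 249 FPKM at 0 h of IAA. Of 6 measured lncRNAs of differentiated cells, 5 and 6 did so, with 20.2 to 28.2 FPKM and 33.9 to 39.2 FPKM. Among nuclear RNAs, Kcnq1ot1 was at 6.55 FPKM on chromatin against 0.70 FPKM in cytoplasm of control AMO cells and at 9.0 against 0.137 FPKM at 0 h. Malat1 was at 831 FPKM on chromatin and 1348 FPKM in cytoplasm of control AMO cells, and at 1286 and 274 FPKM at 0 h. In the same order, Neat1 was at 82.0 and 15.6, then 61.4 and 13.3 FPKM. Meg3 was at 27.7 and 27.4, then 53.2 and 7.26 FPKM, and Firre at 20.9 and 19.3, then 29.3 and 4.7 FPKM. SNRNP70 and the U1 and U2 RNAs were not analysed here, so these values hold no check of the block or the depletion. On chromatin the median change over all lncRNAs was -0.80 after U1 AMO, -0.14 after U2 AMO, -0.74 after U1+U2 AMO, -0.65 in AID total RNA, -0.37 in polyA RNA and -0.41 in labelled RNA. Centring each library on its median moved the members up by about these amounts, and is named where it ends a call or turns a direction.

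In untreated or control cells Snhg12 was the more abundant of the pair by FPKM. In whole cells, control AMO gave Snhg3 at 59.9 ± 4.91 FPKM and Snhg12 at 133 ± 1.76 FPKM (SD, n = 2), ranks 34 and 18 among the 1279 lncRNAs. Total RNA of the AID line at 0 h gave 29.7 ± 6.13 FPKM for Snhg3 and 74.6 ± 9.72 FPKM for Snhg12 (SD, n = 3), ranks 46 and 23. Snhg12 divided by Snhg3 lay between 2.09 and 2.99 in the 11 control AMO libraries and between 1.98 and 3.10 in the 12 AID libraries at 0 h. The fraction that held most of either RNA differed between the sets. Of the summed spike-scaled FPKM of the 3 fractions in control AMO cells, the cytoplasm held 63.4 ± 6.19% of Snhg3 and 63.0 ± 1.75% of Snhg12, chromatin 24.8 ± 4.17% and 25.9 ± 2.83%, and nucleoplasm 11.8 ± 3.43% and 11.2 ± 2.24% (SD, n = 3, fractions joined by replicate number). In AID cells at 0 h chromatin held 40.9 ± 2.22% of Snhg3 and 42.3 ± 2.36% of Snhg12, nucleoplasm 35.3 ± 5.04% and 35.3 ± 3.70%, and cytoplasm 23.9 ± 3.81% and 22.4 ± 1.36%. The members sat alike within each set and unlike between sets, which differ in line and treatment and were scaled apart. By limma in control AMO cells, chromatin was below cytoplasm for Snhg3 (log2 -1.36, SE 0.255, adjusted p = 3.35e-05) and Snhg12 (log2 -1.29, SE 0.264, adjusted p = 0.000102), where 25.6% of lncRNAs were called lower. In AID cells chromatin was above cytoplasm for Snhg3 (log2 0.78, SE 0.146, adjusted p = 0.000102) and Snhg12 (log2 0.92, SE 0.133, adjusted p = 6.85e-06), where 68.2% were called higher, but after centring both were below (log2 -1.24 and -1.11). The median of chromatin minus cytoplasm over all lncRNAs also differed between the sets, at log2 0.53 in control AMO cells and 2.16 at 0 h. Such comparisons of fractions rest on the authors' spike-in scaling. In control AMO cells the nuclear RNA Malat1 was also higher in cytoplasm (1348 FPKM) than on chromatin (831 FPKM). Meg3 and Firre were near even there, while Neat1 and Kcnq1ot1 were higher on chromatin. At 0 h of IAA each of these nuclear RNAs was higher on chromatin than in cytoplasm. The shares in the AMO set therefore need not show where in the cell the members were.

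In whole cells Snhg12 rose after U1 AMO and after U1+U2 AMO, and Snhg3 rose after U1 AMO by less. Snhg3 stood at 63.3 and 56.4 FPKM in the control AMO libraries, at 102, 73.2 and 95.1 FPKM after U1 AMO, at 68.8, 60.2 and 65.9 FPKM after U2 AMO and at 85.0, 86.5 and 83.7 FPKM after U1+U2 AMO. Both groups that had U1 AMO lay above the controls, and the U2 AMO libraries overlapped them. Snhg12 stood at 134 and 131 FPKM in controls, at 415, 328 and 390 FPKM after U1 AMO, at 169, 179 and 189 FPKM after U2 AMO and at 386, 352 and 394 FPKM after U1+U2 AMO. All 9 treated libraries lay above both controls, and the U2 AMO libraries lay below the other treated ones. The 3 treatments share their control libraries. After U1 AMO Snhg12 rose 2.83-fold (log2 1.50, SE 0.138, adjusted p = 0.000168) and Snhg3 1.49-fold (log2 0.58, SE 0.151, adjusted p = 0.0294), against 6.24% of 1251 lncRNAs called higher and 15.9% higher with no overlap. After U1+U2 AMO Snhg12 rose 2.84-fold (log2 1.51, adjusted p = 0.000163) and Snhg3 missed the threshold (log2 0.51, adjusted p = 0.0563), against 6.24% called higher and 15.7% higher with no overlap. That value of Snhg3 passed with a pseudocount of 1 (adjusted p = 0.0321), after centring (0.0102) and with only these groups in the fit (0.0403). After U2 AMO neither passed, with log2 0.43 for Snhg12 (adjusted p = 0.125) and 0.12 for Snhg3 (adjusted p = 0.726), where 2.24% were called higher and 14.4% were higher with no overlap. Set directly against U2 AMO, U1 AMO gave more Snhg12 (log2 1.07, SE 0.123, adjusted p = 0.000434) and more Snhg3 (log2 0.46, SE 0.135, adjusted p = 0.0425), with 7.51% called higher. The call of Snhg3 after U1 AMO was lost without control 1 (adjusted p = 0.0881), control 2 (0.172), U1 library 1 (0.0738) or U1 library 3 (0.0759) and with only these groups in the fit (0.123). Its call against U2 AMO was lost without U1 library 1 (adjusted p = 0.133) or 3 (0.105), or U2 library 1 (0.0724), 2 (0.118) or 3 (0.089).

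**Figure D1:**
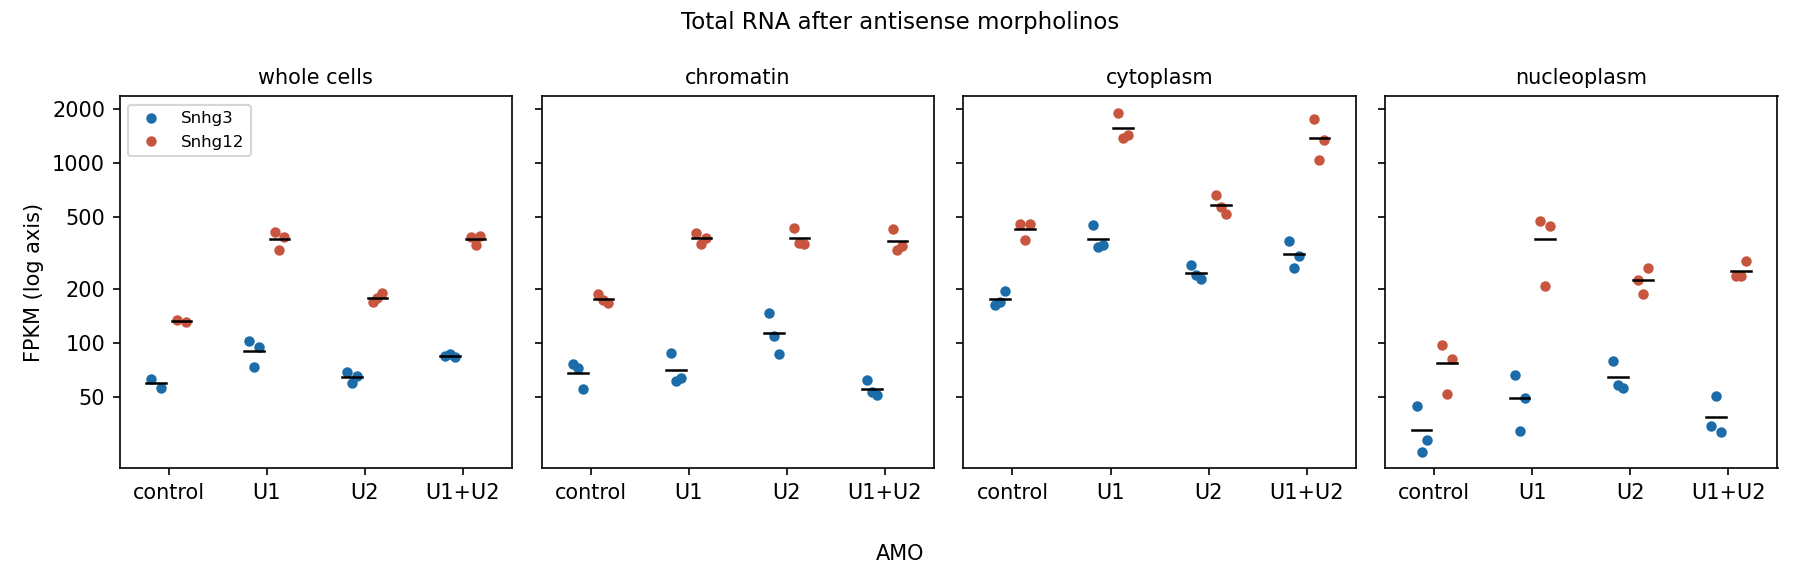
FPKM on a log axis of Snhg3 (blue) and Snhg12 (red) in each library (points) with the group mean (black line), by AMO (x axis) and fraction (panels). Snhg12 after U1 AMO lies above control in each fraction, from 328 to 415 FPKM in whole cells against 131 to 134 FPKM, while Snhg3 on chromatin after U1 AMO, 61.7 to 87.9 FPKM, overlaps control at 55.6 to 76.5 FPKM.

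On chromatin Snhg12 was higher after each treatment, whereas Snhg3 overlapped its controls after U1 AMO and U1+U2 AMO. Snhg3 stood at 76.5, 73.1 and 55.6 FPKM in control libraries, at 87.9, 61.7 and 63.6 FPKM after U1 AMO, at 147, 110 and 86.6 FPKM after U2 AMO and at 62.3, 53.8 and 51.6 FPKM after U1+U2 AMO. The U1 and U1+U2 AMO libraries overlapped the controls, and the U2 AMO libraries lay above them. Snhg12 stood at 186, 174 and 166 FPKM in control libraries, at 408, 354 and 384 FPKM after U1 AMO, at 436, 358 and 356 FPKM after U2 AMO and at 431, 327 and 347 FPKM after U1+U2 AMO. Every treated library lay above every control, and the 3 treated groups overlapped each other. The chromatin values of Snhg12 after U1 AMO and after U2 AMO were among the results that led to the choice of the pair, so they are given with no test: 382 ± 26.7 and 384 ± 45.8 FPKM against 175 ± 10.2 FPKM (SD, n = 3), or log2 1.12 in each. For scale, 5.1% of 1256 lncRNAs were called higher after U1 AMO and 6.61% were higher with no overlap, and after U2 AMO 2.79% and 8.04%. After U1+U2 AMO Snhg12 rose 2.08-fold (log2 1.06, SE 0.194, adjusted p = 0.00104), where 3.82% were called higher (5.81% with replicate numbers as a block), 49.2% lower, and 5.25% were higher with no overlap. This comparison shares its control libraries and its fit with the values that led to the choice. Its adjusted p is therefore not independent of that choice. Snhg3 did not pass after U1 AMO (log2 0.05, SE 0.225, adjusted p = 0.858) or U1+U2 AMO (log2 -0.28, SE 0.225, adjusted p = 0.303), a value that turned positive after centring (log2 0.52), while with centring the U1 AMO value passed (log2 0.89, adjusted p = 0.0377). After U2 AMO Snhg3 had a log2 change of 0.72 (SE 0.225, adjusted p = 0.0713). With replicate numbers as a block Snhg3 passed after U2 AMO (adjusted p = 0.0029), where the lncRNAs called higher went from 2.79% to 5.49%. Against U2 AMO, U1 AMO gave less Snhg3 on chromatin (log2 -0.67, SE 0.225, adjusted p = 0.0285), where 40.0% of lncRNAs were called lower, but the libraries overlapped and after centring the value was -0.07 (adjusted p = 0.892). Without U1 library 2 (adjusted p = 0.0909) or 3 (0.0877), or U2 library 1 (0.105) or 2 (0.0608), that call was lost, as it was with only these groups in the fit (0.0591).

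In cytoplasm both RNAs rose after U1 AMO and after U1+U2 AMO. Snhg3 stood at 162, 169 and 194 FPKM in control libraries, at 450, 339 and 349 FPKM after U1 AMO, at 272, 239 and 227 FPKM after U2 AMO and at 370, 261 and 304 FPKM after U1+U2 AMO. All 9 treated libraries lay above the controls. Snhg12 stood at 456, 373 and 460 FPKM in control libraries, at 1884, 1372 and 1428 FPKM after U1 AMO, at 663, 572 and 518 FPKM after U2 AMO and at 1762, 1041 and 1344 FPKM after U1+U2 AMO. It was the lncRNA with the fifth highest mean of the fraction after U1 AMO (rank 5) and stood at rank 4 after U1+U2 AMO, from rank 13 in control cells. After U1 AMO Snhg12 rose 3.61-fold (log2 1.85, SE 0.238, adjusted p = 0.00151) and Snhg3 2.16-fold (log2 1.11, SE 0.197, adjusted p = 0.00524), against 3.95% of 1242 lncRNAs called higher and 11.3% higher with no overlap. After U1+U2 AMO Snhg12 rose 3.16-fold (log2 1.66, adjusted p = 0.00288) and Snhg3 1.77-fold (log2 0.82, adjusted p = 0.0268), against 2.74% called higher and 9.66% higher with no overlap. After U2 AMO neither passed, with log2 0.49 for Snhg3 (adjusted p = 0.26) and 0.44 for Snhg12 (adjusted p = 0.423), where 0.403% were called higher and 6.04% were higher with no overlap. U1 AMO gave more Snhg12 than U2 AMO (log2 1.41, SE 0.238, adjusted p = 0.00921), where 2.74% were called higher, and the call was lost with only these groups in the fit (adjusted p = 0.0532). For Snhg3 the same difference was log2 0.62 (adjusted p = 0.116), and with replicate numbers as a block it passed (adjusted p = 0.0437). The call of Snhg3 after U1+U2 AMO was lost without control 1 (adjusted p = 0.0978), 2 (0.0667) or 3 (0.0569), or U1+U2 library 1 (0.0835) or 3 (0.0704), and with only these groups in the fit (0.0727).

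In nucleoplasm Snhg12 rose after each treatment, and Snhg3 rose after U2 AMO. Snhg3 stood at 44.6, 25.0 and 29.1 FPKM in control libraries, at 66.4, 32.4 and 49.6 FPKM after U1 AMO, at 80.0, 58.6 and 56.5 FPKM after U2 AMO and at 34.4, 50.9 and 32.0 FPKM after U1+U2 AMO. Only its U2 AMO libraries lay wholly above the controls. Snhg12 stood at 97.3, 52.3 and 82.0 FPKM in control libraries, at 474, 208 and 448 FPKM after U1 AMO, at 223, 187 and 260 FPKM after U2 AMO and at 236, 237 and 285 FPKM after U1+U2 AMO. Each treated library lay above every control, and U1 library 2 stood at less than 210 FPKM, below the others of its group. Snhg12 rose 4.72-fold after U1 AMO (log2 2.24, SE 0.364, adjusted p = 0.00062), against 10.5% of 1142 lncRNAs called higher and 15.1% higher with no overlap. It rose 2.96-fold after U2 AMO (log2 1.57, SE 0.364, adjusted p = 0.00832), against 19.4% called higher and 35.8% higher with no overlap, and 3.36-fold after U1+U2 AMO (log2 1.75, SE 0.364, adjusted p = 0.0057), against 7.88% and 14.5%. Snhg3 rose 2.01-fold after U2 AMO (log2 1.01, SE 0.328, adjusted p = 0.0444), while the median of all lncRNAs was 0.45, and after centring it no longer passed (log2 0.50, adjusted p = 0.128). That call was also lost without control 2 (adjusted p = 0.16) or 3 (0.132), or U2 library 1 (0.169), 2 (0.0782) or 3 (0.0627). Snhg3 did not pass after U1 AMO (log2 0.57, adjusted p = 0.293) or U1+U2 AMO (log2 0.26, adjusted p = 0.667). U1 and U2 AMO did not differ beyond the threshold for Snhg12 (log2 0.67, adjusted p = 0.184) or Snhg3 (log2 -0.44, adjusted p = 0.327). Without U1 library 2 the Snhg12 difference was 1.06 and passed (adjusted p = 0.0387), and it passed after centring too (log2 1.11, adjusted p = 0.0112).

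In the degron line both RNAs rose in total RNA of every compartment after 4 h of IAA. In whole cells Snhg3 went from 34.2, 22.7 and 32.1 FPKM at 0 h to 74.5, 72.9 and 64.7 FPKM at 4 h, and Snhg12 from 80.8, 63.4 and 79.6 to 248, 242 and 221 FPKM. On chromatin Snhg3 went from 52.4, 45.3 and 52.4 to 85.7, 95.5 and 75.9 FPKM, and Snhg12 from 134, 118 and 137 to 333, 320 and 309 FPKM. None of these groups overlapped. In cytoplasm Snhg3 went from 35.9, 24.5 and 27.7 to 89.4, 79.3 and 76.0 FPKM, and Snhg12 from 71.1, 61.5 and 73.1 to 240, 229 and 288 FPKM. In nucleoplasm Snhg3 went from 39.1, 47.8 and 42.1 to 80.9, 84.5 and 79.8 FPKM, and Snhg12 from 121, 108 and 94.6 to 287, 254 and 239 FPKM. Here too each 4 h library lay above every 0 h library. Whole cells gave a 2.41-fold rise of Snhg3 (log2 1.27, SE 0.163, adjusted p = 0.00455) and a 3.19-fold rise of Snhg12 (log2 1.68, SE 0.116, adjusted p = 0.000665), with 5.31% of 1261 lncRNAs called higher and 14.3% higher with no overlap. Chromatin gave a 1.71-fold rise of Snhg3 (log2 0.77, SE 0.160, adjusted p = 0.00282) and a 2.48-fold rise of Snhg12 (log2 1.31, SE 0.160, adjusted p = 0.00015), with 3.17% of 1260 called higher, 46.7% called lower and 4.37% higher with no overlap. Snhg12 had the eighth highest change on chromatin (rank 8) and Snhg3 stood at rank 33. Cytoplasm gave a 2.80-fold rise of Snhg3 (log2 1.49, SE 0.173, adjusted p = 0.00509) and a 3.67-fold rise of Snhg12 (log2 1.87, SE 0.146, adjusted p = 0.00119), with 2.66% of 1089 called higher and 11.5% higher with no overlap. Nucleoplasm gave a 1.91-fold rise of Snhg3 (log2 0.93, SE 0.141, adjusted p = 0.00557) and a 2.41-fold rise of Snhg12 (log2 1.27, SE 0.162, adjusted p = 0.00257), with 5.21% of 1209 called higher and 11.6% higher with no overlap. These 8 calls held without any single library and under each other alternative tried.

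In polyA RNA of the same line both RNAs rose in whole cells, and on chromatin Snhg12 fell, a direction that centring turned. In whole cells Snhg3 went from 48.6, 52.9 and 61.5 FPKM at 0 h to 72.7, 73.6 and 71.3 FPKM at 4 h, and Snhg12 from 111, 108 and 116 to 149, 144 and 146 FPKM. Both sets of 4 h libraries lay above those at 0 h. On chromatin Snhg3 went from 62.2, 55.3 and 62.3 to 64.8, 69.2 and 58.1 FPKM, which overlapped, and Snhg12 from 202, 195 and 193 to 178, 170 and 164 FPKM, which did not. Whole cells gave a 1.34-fold rise of Snhg3 (log2 0.42, SE 0.091, adjusted p = 0.0119) and a 1.31-fold rise of Snhg12 (log2 0.39, SE 0.058, adjusted p = 0.00217), with 13.0% of 1135 lncRNAs called higher and 22.0% higher with no overlap. On chromatin Snhg12 fell to 0.868 of its level (log2 -0.20, SE 0.048, adjusted p = 0.00962), with 36.8% of 1217 called lower and 43.9% lower with no overlap, but after centring it was higher (log2 0.28, adjusted p = 0.00817). Snhg3 did not pass on chromatin (log2 0.09, SE 0.082, adjusted p = 0.386) and passed after centring (log2 0.58, adjusted p = 0.00136). Side by side, the whole-cell change was log2 1.68 in total and 0.39 in polyA RNA for Snhg12 and 1.27 and 0.42 for Snhg3, and the chromatin change was 1.31 and -0.20 for Snhg12 and 0.77 and 0.09 for Snhg3. The tables were scaled apart, fractions of total RNA with lacZ and mCherry RNA added and polyA chromatin with ERCC RNA, while whole cells of either kind have no spike-in scaling named. The difference between total and polyA RNA was not tested.

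**Figure D2:**
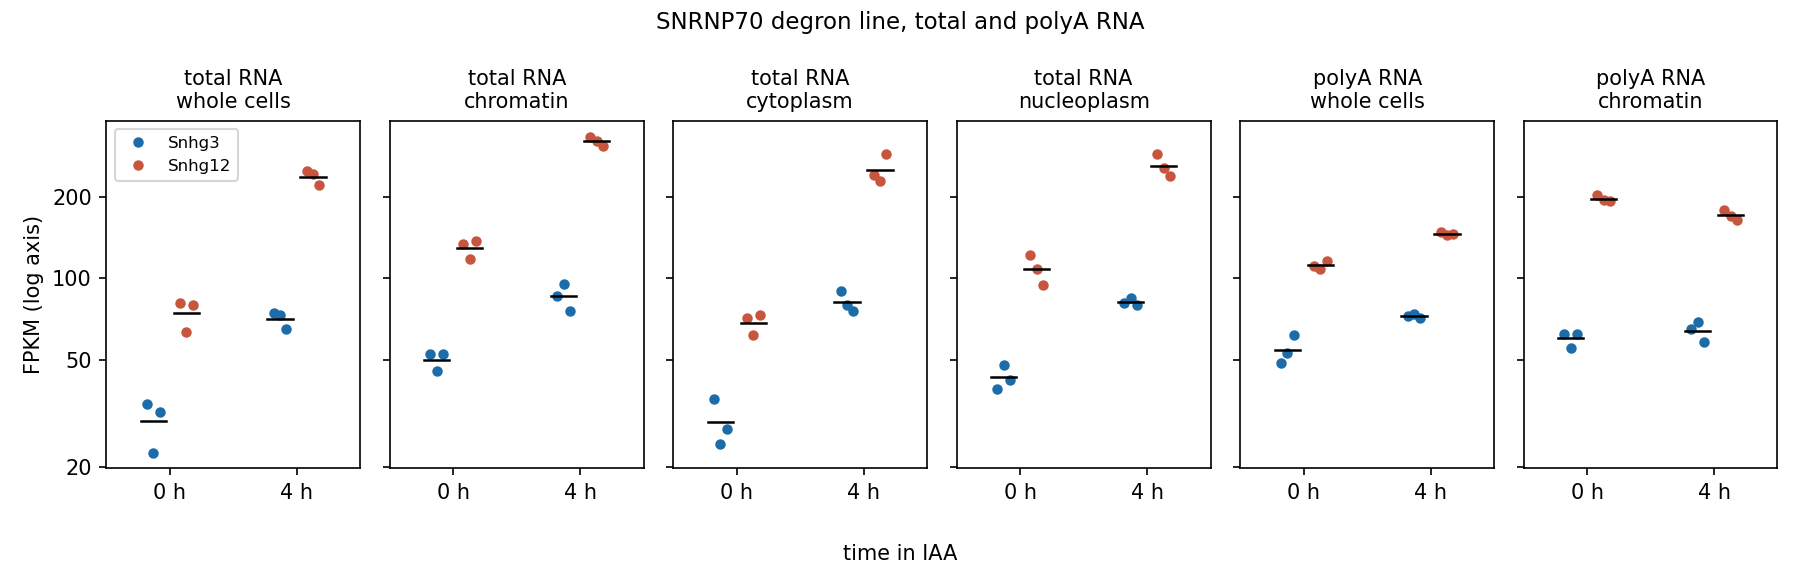
FPKM on a log axis of Snhg3 (blue) and Snhg12 (red) in each library (points) with the group mean (black line) of the SNRNP70 degron line, by time in IAA (x axis), fraction and kind of RNA (panels). Total RNA at 4 h lies above 0 h in all 4 compartments, and on chromatin Snhg12 goes from 118 to 137 FPKM up to 309 to 333 FPKM in total RNA but from 193 to 202 FPKM down to 164 to 178 FPKM in polyA RNA. Total and polyA RNA were scaled apart. In polyA chromatin 36.8% of lncRNAs were called lower, and after centring Snhg12 was higher there (log2 0.28).

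Labelled RNA was read as a spike-scaled signal that is not per length, so its levels are compared only within a gene. Per the labels, chromatin was total RNA and the soluble fractions polyA RNA in this set. On chromatin Snhg3 stood at 628, 1158 and 796 with no IAA and at 972, 869 and 877 with IAA, and Snhg12 at 1014, 774 and 1034 and at 728, 1232 and 1070. In cytoplasm Snhg3 stood at 11305, 18305 and 11505 with no IAA and at 13735, 15575 and 12446 with IAA, and Snhg12 at 1491, 2446 and 1314 and at 2227, 1803 and 1554. All of these groups overlapped. In nucleoplasm Snhg3 went from 9581, 13467 and 8920 to 16243, 18747 and 18186, and Snhg12 from 2903, 3795 and 2844 to 5096, 4274 and 5322, with every IAA library above the others. Snhg3 rose 1.69-fold there (log2 0.76, SE 0.213, adjusted p = 0.0028) and Snhg12 1.55-fold (log2 0.63, SE 0.214, adjusted p = 0.0162), against 17.8% of 490 lncRNAs called higher and 23.5% higher with no overlap. Without no-IAA library 3 the Snhg3 call was lost (adjusted p = 0.0703), and the Snhg12 call was lost without no-IAA library 1 (0.0975) or 3 (0.0926) or IAA library 1 (0.112) or 3 (0.101). On recovered reads edgeR gave log2 0.73 for Snhg3 (adjusted p = 0.00154) and 0.62 for Snhg12 (adjusted p = 0.0199), from 3660 to 11417 reads a library of Snhg3 and 1109 to 2603 of Snhg12. In cytoplasm the log2 change was 0.05 for Snhg3 (SE 0.291, adjusted p = 0.938) and 0.13 for Snhg12 (SE 0.321, adjusted p = 0.871). On chromatin it was 0.12 for Snhg3 (SE 0.192, adjusted p = 0.651) and 0.08 for Snhg12 (SE 0.192, adjusted p = 0.763), while the median of all lncRNAs was -0.41, and after centring both passed (log2 0.68 and 0.64, adjusted p = 0.00823 and 0.0306).

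Across the 21 changes against a control group, Snhg12 was called higher in 16 and lower in 1, and its 16 include the 2 chromatin values that led to its choice. Snhg3 was called higher in 10, was called lower in none and did not pass in 11. Both tallies are from fits with no replicate block, with which Snhg3 also passed on chromatin after U2 AMO (limma, adjusted p = 0.0029). Over these comparisons, the share of all lncRNAs called higher ran from 0.403% (cytoplasm, U2 AMO) to 19.4% (nucleoplasm, U2 AMO). In polyA chromatin, where Snhg12 was called lower, 36.8% were called lower. The change of Snhg12 was above that of Snhg3 in 11 of 12 AMO comparisons and 4 of 4 in AID total RNA, in 0 of 2 in polyA RNA and in 1 of 3 in labelled RNA. The AMO count includes chromatin after U1 AMO and after U2 AMO, whose Snhg12 values led to its choice. The treatments of a fraction share controls, so these counts are not independent.

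**Figure D3:**
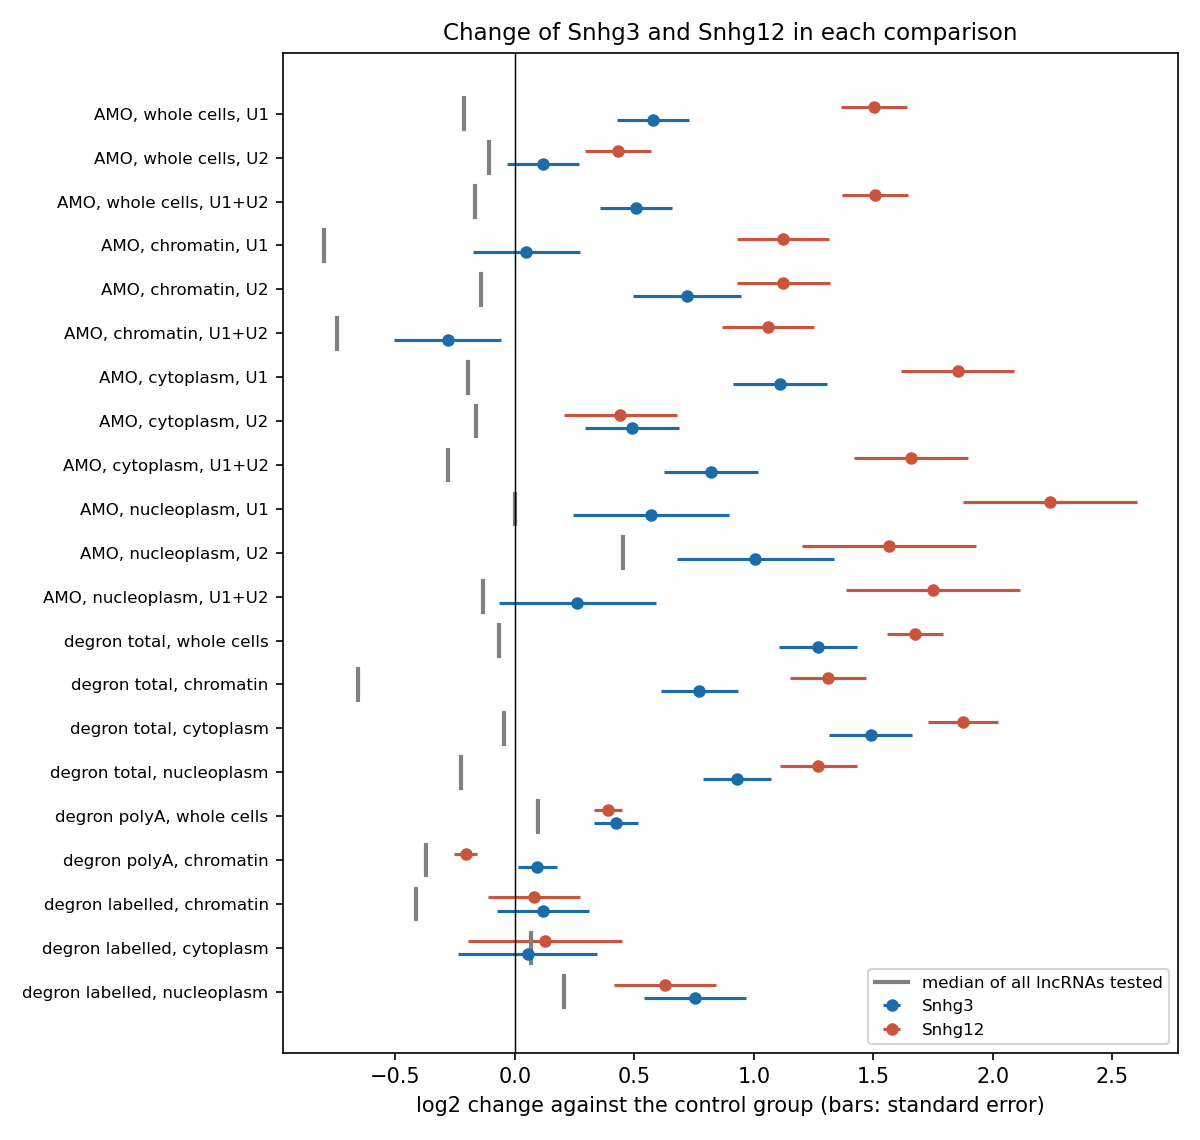
Log2 change against the control group (x axis) of Snhg3 (blue) and Snhg12 (red) with its standard error (bars) in each of 21 comparisons (y axis), with the median of all lncRNAs tested as a grey tick. Snhg12 lies to the right of Snhg3 in 11 of 12 AMO rows, by most in nucleoplasm after U1 AMO (2.24 against 0.57), and both lie near 0 in labelled RNA of chromatin and cytoplasm. The AMO rows include chromatin after U1 AMO and after U2 AMO, whose Snhg12 values led to its choice.

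The ratio of Snhg12 to Snhg3 within a library does not depend on how that library was scaled. On chromatin it was 2.60 ± 0.337 in control AMO cells, 5.48 ± 0.741 after U1 AMO, 3.45 ± 0.595 after U2 AMO and 6.57 ± 0.439 after U1+U2 AMO (SD, n = 3). In nucleoplasm it was 2.37 ± 0.397, 7.53 ± 1.35, 3.53 ± 0.955 and 6.81 ± 2.14 in the same order, and in cytoplasm 2.47 ± 0.317, 4.11 ± 0.0732, 2.37 ± 0.0806 and 4.39 ± 0.389. The libraries after U1 AMO and after U1+U2 AMO lay above the controls in all 4 compartments, and those after U2 AMO overlapped them in 3. In AID total RNA it went from 2.55 ± 0.223 to 3.36 ± 0.0578 in whole cells, from 2.59 ± 0.0381 to 3.77 ± 0.372 on chromatin and from 2.38 ± 0.349 to 3.12 ± 0.589 in cytoplasm, with no overlap of groups. Nucleoplasm went from 2.54 ± 0.490 to 3.18 ± 0.312, with overlap. In polyA RNA it went from 2.07 ± 0.197 to 2.02 ± 0.0526 in whole cells, with overlap, and from 3.29 ± 0.220 to 2.68 ± 0.194 on chromatin, without. A two-sided exact permutation test of the log2 ratio cannot go below p = 0.10 with 3 against 3 libraries, or 3 against 2. Of 25 comparisons of the ratio, 3 on chromatin between control, U1 AMO and U2 AMO hold the Snhg12 values that led to the choice of the pair and were not tested. Over the other 22 the smallest Benjamini-Hochberg adjusted permutation p was 0.157. With that floor of 0.10 none could pass 0.05, so the test cannot decide if a ratio changed. Among these 22, the ratio on chromatin after U1+U2 AMO shares control libraries with those not tested. In labelled RNA with no IAA the ratio of signals was 1.19 ± 0.481 on chromatin, 0.301 ± 0.0186 in nucleoplasm and 0.127 ± 0.0108 in cytoplasm (SD, n = 3), and with IAA 1.13 ± 0.344, 0.278 ± 0.0447 and 0.134 ± 0.0246. The chromatin libraries of labelled RNA were total RNA and the others polyA RNA, so fraction and kind of RNA cannot be told apart there, whereas nucleoplasm and cytoplasm were of 1 kind and did not overlap.

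**Figure D4:**
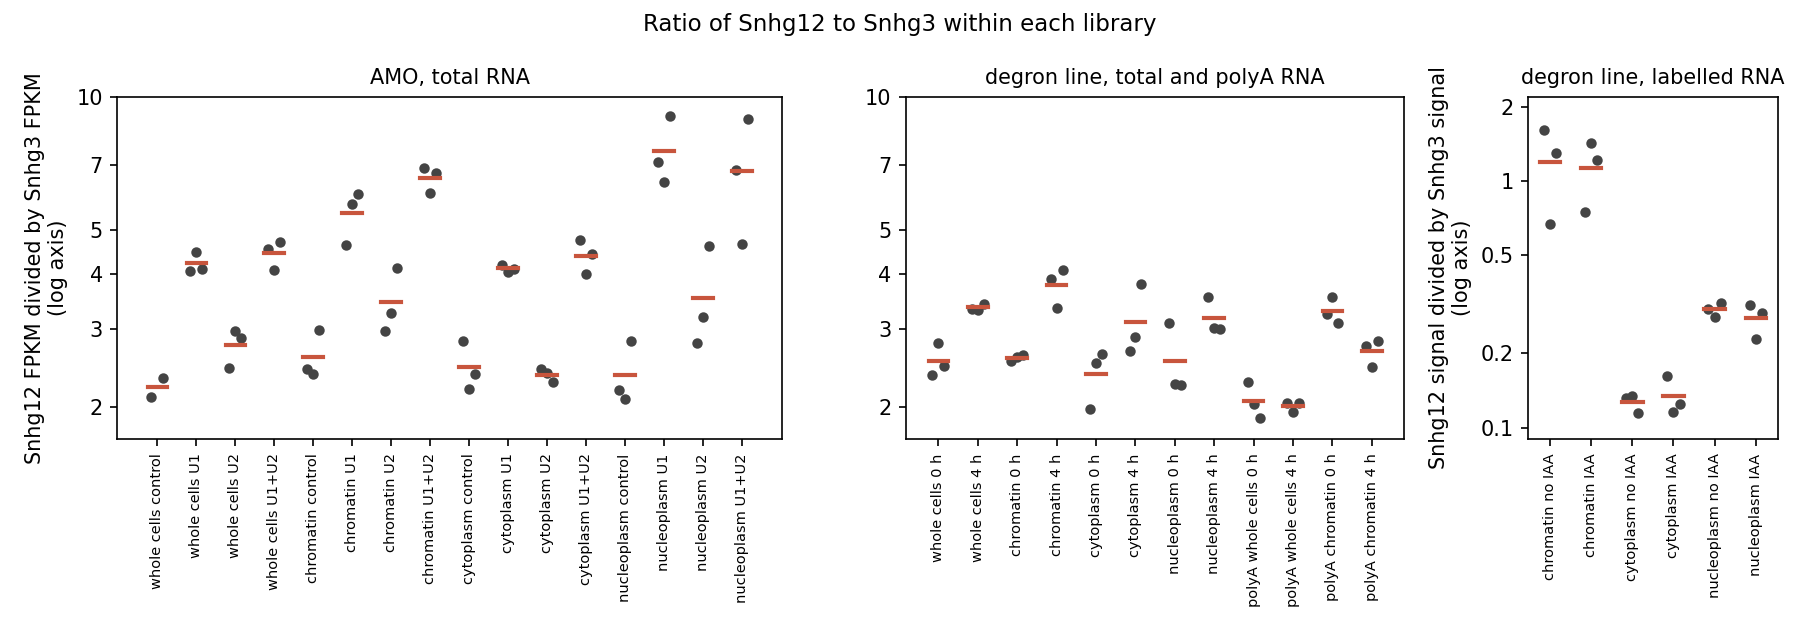
Snhg12 value divided by Snhg3 value on a log axis in each library (points) with the group mean (red line), by group (x axis), for AMO total RNA, for total and polyA RNA of the degron line, and on an axis of its own for labelled RNA. U1 and U1+U2 AMO groups lie above their controls, and in labelled RNA the ratio is 0.668 to 1.61 on chromatin against 0.114 to 0.162 in cytoplasm. Labelled chromatin was total RNA and labelled cytoplasm polyA RNA, so fraction and kind of RNA cannot be told apart in that contrast.

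The mean chromatin share of both genes was lower after U1 AMO and U1+U2 AMO than in control cells. Chromatin held 14.2 ± 0.393% of Snhg3 and 16.7 ± 1.81% of Snhg12 after U1 AMO, and 13.8 ± 0.794% and 18.5 ± 1.57% after U1+U2 AMO (SD, n = 3). After U2 AMO it held 26.6 ± 3.04% and 32.1 ± 0.800%. In the degron line at 4 h it held 34.4 ± 2.16% of Snhg3 and 38.5 ± 1.47% of Snhg12, with cytoplasm at 32.8 ± 2.17% and 30.3 ± 3.63%. The shift sets the chromatin change against the average change of both soluble fractions, on the log2 scale. For Snhg12 it was -0.92 after U1 AMO and 0.12 after U2 AMO, which hold the chromatin values that led to its choice and are given with no test, where 19.7% of 1277 lncRNAs were called lower after U1 AMO. After U1+U2 AMO it was -0.64 for Snhg12 (adjusted p = 0.204) and -0.82 for Snhg3 (adjusted p = 0.0891), and Snhg3 had -0.79 after U1 AMO (adjusted p = 0.0712) and -0.03 after U2 AMO (adjusted p = 0.986). The Snhg12 test after U1+U2 AMO shares its control libraries with the values that led to its choice. The median of all lncRNAs was -0.66 after U1 AMO, -0.28 after U2 AMO and -0.50 after U1+U2 AMO. After centring, the values of Snhg3 after U1 AMO (log2 0.05) and U2 AMO (log2 0.38) and of Snhg12 after U1+U2 AMO (log2 0.03) had the other sign. In AID total RNA the shift was -0.44 for Snhg3 (adjusted p = 0.0992) and -0.26 for Snhg12 (adjusted p = 0.274), against a median of -0.57 over all lncRNAs, and after centring both were above 0 (log2 0.18 and 0.35). In polyA RNA, as spike-scaled chromatin minus unscaled whole cells, it fell for Snhg12 (log2 -0.59, SE 0.068, adjusted p = 0.000113) and was -0.33 for Snhg3 (adjusted p = 0.0892), with 18.4% of 1234 lncRNAs called lower, a median of -0.49 over all, and after centring -0.02 for Snhg12 (adjusted p = 0.938) and 0.24 for Snhg3.

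Other snoRNA hosts were read from a list of 21 fixed with earlier results known, of which 12 were tested in each comparison of the AMO, AID and polyA tables. Among them are Gas5, which carries many box C/D snoRNAs, and Snhg1. On chromatin after U1 AMO 0 rose, 3 fell (Snhg6, log2 -0.97, adjusted p = 0.000503; Gas5, -0.69, 0.00976; Dancr, -0.68, 0.0331) and 9 did not pass, with a median of -0.32 against -0.80 for all lncRNAs, 51.8% of which were called lower. With replicate numbers as a block 1 rose and 7 fell, against 6.53% and 59.8% of all lncRNAs. After centring 4 rose and 0 fell, against 18.0% and 11.5% of all. After U1+U2 AMO 0 rose and 5 fell, with a median of -0.58 against -0.74, while the block gave 9 falls and centring gave 1 rise and 0 falls. Of all lncRNAs 49.2% were called lower there, or 58.7% with the block. After centring 15.0% of all were called higher and 8.2% lower. After U2 AMO Snhg1 rose by log2 1.80 (adjusted p = 0.00014), Gas5 by 1.15 (adjusted p = 0.00431) and no other host, with 0 falls, a median of 0.21 against -0.14, and 4 rises with the block. Of all lncRNAs 2.79% were called higher and 5.02% lower there, or 5.49% higher with the block. In nucleoplasm after U1 AMO 3 rose, with Snhg15 first (log2 1.51, adjusted p = 0.00516), and 0 fell, at a median of 0.50 against 0.00. Of all lncRNAs 10.5% were called higher and 3.68% lower there. With the block 5 hosts rose and 1 fell, against 11.6% and 6.3% of all. After U2 AMO 6 rose there and 0 fell, with Snhg1 first (log2 2.48, adjusted p = 0.000243), at a median of 1.00 against 0.45 and with 19.4% of all called higher. In AID total RNA 7 rose and 0 fell in whole cells, at a median of 0.54 against -0.07, where 5.31% of all lncRNAs were called higher and 6.5% lower. In cytoplasm of that line 4 rose and 0 fell, at a median of 0.44 against -0.04, with 2.66% of all called higher and 1.01% lower. In its nucleoplasm 5 rose and 1 fell, at a median of 0.575 against -0.226, with 5.21% of all called higher and 10.8% lower. After centring 10 rose and 0 fell in nucleoplasm, against 12.2% and 7.44% of all. In chromatin of that line 2 rose (Epb41l4aos, log2 1.64, adjusted p = 0.0148, and 1 more) and 3 fell, at a median of 0.00 against -0.65, or 7 rises and 0 falls after centring. Over all lncRNAs of that comparison 3.17% were called higher and 46.7% lower, and after centring 21.0% and 16.7%. In polyA RNA 10 rose and 1 fell in whole cells (13.0% of all lncRNAs called higher and 7.05% lower), at a median of 0.84 against 0.10, with Snhg5 first (log2 1.21, adjusted p = 3.61e-06). In polyA chromatin 4 rose (8.96% of all) and 3 fell (36.8% of all), Snhg6 by the most (log2 -1.22, adjusted p = 4.93e-05), at a median of 0.07 against -0.37. In labelled RNA of cytoplasm 8 of 15 hosts rose (6.62% of all lncRNAs) and 0 fell, with Gas5 first (log2 3.02, adjusted p = 1.44e-14), at a median of 0.82 against 0.07, where neither Snhg3 nor Snhg12 passed. In labelled nucleoplasm, where both members were called higher, 9 of 15 hosts rose and 0 fell, at a median of 0.87 against 0.21. Of all lncRNAs 17.8% were called higher and 9.59% lower there. The changes of Snhg3 (log2 0.76) and Snhg12 (log2 0.63) lay below that host median. By limma at an unadjusted p under 0.05, 0 hosts were higher and 3 lower on chromatin after U1 AMO, 0 and 6 after U1+U2 AMO, 3 and 0 after U2 AMO, 4 and 1 in nucleoplasm after U1 AMO, 8 and 0 there after U2 AMO, 8 and 1 in AID whole cells, and 9 and 0 in labelled cytoplasm. In the same order, the lncRNAs higher at that p were 75, 63 and 81 of 1256, 161 and 369 of 1142, 156 of 1261 and 49 of 423. Those lower at that p were not counted. By adjusted p, 51.8% of all lncRNAs were called lower on chromatin after U1 AMO and 49.2% after U1+U2 AMO.

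Likeness of pattern was taken as Pearson's r of group mean log2 levels among the 639 other lncRNAs with a mean at or above the table's median, as a description over groups that share controls and scaling. Over the 16 AMO groups the lncRNAs most like Snhg3 were Snhg15 (r = 0.968), Gm38102 (0.959) and Rab26os (0.952), and Snhg12 stood at rank 117 (0.857). Those most like Snhg12 were 4932422M17Rik (r = 0.925), Gm29170 (0.923) and A230004M16Rik (0.908), and Snhg3 stood at rank 11. Over the 8 groups of AID total RNA each member was the lncRNA most like the other (r = 0.992), followed for Snhg3 by Snhg1 (0.931) and Gm29170 (0.863) and for Snhg12 by Snhg1 (0.916) and Gm29170 (0.843).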

How the data were processed

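Values of lncRNAs in 101 library columns of 4 tables were used, and 1 column whose name gives no fraction was not. Total and polyA RNA values are deposited FPKM; the file headers name spike-in scaling for fractions and none for whole cells. Labelled values are a signal deposited as spike-scaled T>C reads, per the file headers. They stood on whole steps, which gave 24927 to 227237 reads per library, with 99.78% to 100% of values within 0.1 read of a whole number. The library of 227237 reads, no-IAA chromatin library 2, has few low values, so its step is less certain. FPKM depth is not given in the sources used here, so only the spread between libraries gives the precision of FPKM. The submitters' processing notes name CASAVA, TopHat, Cufflinks and mm10. TT-seq, ChIP-seq and ChIRP samples were not analysed here. Rows with a repeated identifier were left out (3 in the AMO and AID tables, 2 in polyA). Symbols came from a table of gene names (1261, 1261, 1229 and 485 lncRNAs matched). The labels name a directional kit; no source used here says if strand was used in counting.

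Log2 values took a pseudocount at the 10th percentile of values above 0 (0.2 AMO, 0.1 AID and polyA, 8 labelled), and a lncRNA was tested where 3 libraries of the fit reached it. Each fraction had 1 fit over all its groups in limma 3.58.1 (R 4.3.3, eBayes with trend, Benjamini-Hochberg over all lncRNAs tested), checked on simulated data. Such log2 changes understate low values, which these members are not. The alternative for labelled RNA was edgeR 4.0.16 (quasi-likelihood) on recovered reads. Other alternatives were a pseudocount of 1, no filter, median centring, a replicate block, only the compared groups in a fit, and leaving out each library. Ratios were tested by exact permutation.

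Members, lists and comparisons were chosen with earlier results of these data known. Named genes are the members, up to 4 hosts with the largest called change in a comparison (part is given), the 3 lncRNAs most like each member, and lncRNAs within 500 kb. Same-numbered libraries were checked for shared deviations from group means. In AMO chromatin (r 0.284 to 0.526), AMO nucleoplasm (0.148 to 0.488), and cytoplasm for U1 AMO against control (0.107 to 0.3) and against U2 AMO (0.196 to 0.386), each pair exceeded 0.1, so there the numbers were taken to pair libraries, from the data and not the labels. Elsewhere the lowest pair fell under this. The main fits took no block even where numbers pair libraries, so their adjusted p and shares ignore that pairing. Fits with the block are given as an alternative.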

Additional observations from a re-analysis of the deposited data

Results flagged for a closer look

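The change of Snhg12 in polyA RNA of the degron line differed between chromatin and whole cells by a test of the difference itself. The change on chromatin minus that in whole cells was -0.595 (log2, SE 0.068), from a rise in whole cells (log2 0.39) and a fall on chromatin (log2 -0.20). Chromatin was spike-scaled and whole cells were not, so scaling and fraction cannot be told apart here. The value lay between -0.62 and -0.57 without any single chromatin library, and the median of all lncRNAs was -0.49. Of 1234 lncRNAs 18.4% were called lower, and Snhg12 stood at rank 744 from the highest difference. After each library was centred on its median the difference was -0.022 and did not pass (adjusted p = 0.938 by limma).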

How the results depend on the processing

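Of 711 values under alternatives, 618 kept direction and side of the threshold, 45 lost the call, 15 gained it and 33 changed sign, 18 of these under median centring. No filter changed none of 50 values, nor did edgeR on recovered reads (6), shares of group means (36) or the ratio with a pseudocount (25). With centring, Snhg3 on chromatin passed after U1 AMO (0.89), in polyA (0.58) and in labelled RNA (0.68), as did Snhg12 in labelled RNA (0.64), and it turned Snhg3 after U1+U2 AMO (0.52) and polyA Snhg12 (0.28). Of U1 minus U2 AMO differences centring turned Snhg12 on chromatin (0.60) and Snhg3 in nucleoplasm (0.001). Shifts of Snhg3 turned after U1 (0.048) and U2 AMO (0.38), in AID (0.18) and in polyA RNA (0.24), those of Snhg12 turned after U1+U2 AMO (0.034) and in AID RNA (0.35), that of Snhg12 in polyA RNA lost the call (-0.022), and that of Snhg12 after U1 AMO, which is given with no test, was -0.085. Chromatin against nucleoplasm turned in control AMO cells (Snhg3 -0.80, Snhg12 -0.65) and at 0 h (-1.50, -1.46), chromatin against cytoplasm at 0 h (-1.24, -1.11), and polyA chromatin against whole cells (-0.84, -0.16). The replicate block, where numbers pair libraries, changed no member's call but those given in the report for Snhg3 (log2 0.72 on chromatin after U2 AMO, 0.62 in cytoplasm for U1 minus U2 AMO). Where libraries share only a number, the block let Snhg3 pass in shifts after U1 AMO (-0.79) and U1+U2 AMO (-0.82) and in whole cells after U1+U2 AMO (0.49), let Snhg12 pass for chromatin against nucleoplasm at 0 h (0.27), and ended the nucleoplasm call of labelled Snhg12 (0.63, adjusted p = 0.0738). Leaving out single libraries gave ranges of -0.11 to 0.14 (Snhg3 on chromatin, U1 AMO), -0.05 to 0.10 (Snhg12 on chromatin, U1 minus U2 AMO), -0.085 to 0.35 and -0.079 to 0.30 (labelled chromatin, Snhg3 and Snhg12), -0.066 to 0.28 and -0.053 to 0.39 (labelled cytoplasm), -0.97 to -0.87 (Snhg12 shift, U1 AMO) and -0.22 to 0.16 (Snhg3 shift, U2 AMO). The cause of these differences was not tested. In AMO chromatin, centring moved lncRNAs called higher among all calls from 8.95% to 60.9% after U1 AMO, from 35.7% to 68.0% after U2 AMO and from 7.21% to 64.6% after U1+U2 AMO, and from 6.37% to 55.8% in AID, 19.6% to 53.6% in polyA and 14.5% to 59.6% in labelled RNA. It moved that share by over 10 percentage points as well in whole cells after U1 AMO (46.4% to 63.8%) and U1+U2 AMO (53.8% to 66.9%), in cytoplasm after U2 AMO (31.2% to 53.8%) and U1+U2 AMO (33.3% to 57.4%), in nucleoplasm after U1 AMO (74.1% to 53.0%) and U2 AMO (100% to 72.0%), in AID nucleoplasm (32.6% to 62.2%), in polyA whole cells (64.8% to 54.0%) and in labelled nucleoplasm (64.9% to 53.1%). With only the compared groups in the fit, lncRNAs called higher went from 28 to 7 in whole cells after U2 AMO, and in cytoplasm from 49 to 28 after U1 AMO, from 5 to 0 after U2 AMO and from 34 to 0 for U1 against U2 AMO (limma, with 47 and 100 higher at an unadjusted p under 0.05). A pseudocount of 1 gave 135 in place of 221 in nucleoplasm after U2 AMO, the block 43 in place of 67 in AID whole cells, and no filter 13 in place of 28 in labelled cytoplasm.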
